A study of Homo sapiens with 9 samples.

Results

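The globin genes of the alpha and beta clusters were followed across all 9 arrays of RKO cells, a human colorectal cancer cell line. Members were every probe that is not a control and whose gene name on the array was one of 10 listed globin genes. The array held 14 such probes under 8 gene names, out of 50599 probes and 36337 gene names. The alpha cluster had 8 probes (3 of HBZ, 1 of HBM, 3 of HBA2 and 1 of HBQ1), and the beta cluster had 6 (1 of HBE1, 2 of HBG1, 1 of HBD and 2 of HBB). No probe had HBA1 or HBG2 as its gene name, but 2 of the 3 HBA2 probes were also assigned to HBA1 and both HBG1 probes were also assigned to HBG2, so these copies could not be told apart there. The genes were selected on the HBA2 signals in siCONT + TSA against siCONT, where HBA2 had been seen to be higher, so the values of that comparison are given without a test.

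The study asked how UHRF1 depletion and histone deacetylase inhibition affect gene silencing. Cells received a control siRNA (siCONT) or an siRNA against UHRF1 (siUHRF1) for 72 h and then, for another 24 h, either ethanol alone as mock or the histone deacetylase inhibitor trichostatin A (TSA) at 300 nM. The siCONT and siUHRF1 groups had 2 arrays each without TSA and 2 each with it (siCONT + TSA and siUHRF1 + TSA), and in the UHRF1-depleted groups replicate 1 carried siUHRF1-1 and replicate 2 carried siUHRF1-2. UHRF1 is required for the maintenance of DNA methylation. A single array held cells given 1 µM 5-aza-2'-deoxycytidine (5-aza-dC), an inhibitor of DNA methyltransferases, for 72 h without siRNA. Every array came from this 1 cell line, and none of the siRNA arrays lacked transfection. The replicates of the UHRF1-depleted groups were separate transfections with different siRNAs, whereas no source states that those of the siCONT groups came from separate cultures, so p-values reflect only the spread between these arrays, part of which may be technical. RNA was taken from whole cultures, so fewer expressing cells and less RNA per cell cannot be told apart.

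Hemoglobin is a tetramer of alpha-type and beta-type globin chains, and its genes lie in a cluster on chromosome 16 (alpha) and another on chromosome 11 (beta). In each cluster the genes are used in turn during development: HBZ and HBE1 are the embryonic alpha-type and beta-type genes, HBG1 and HBG2 the fetal beta-type genes, and HBA1, HBA2 and HBB the main adult genes. Outside erythroid cells these genes are normally silent. The alpha cluster lies in GC-rich, gene-dense chromatin next to widely expressed genes, whereas the beta cluster lies in AT-rich chromatin among olfactory receptor genes.

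The 3 HBA2 probes carry the strongest response and are shown first. In hg19 coordinates they lie on the plus strand at chr16:223555-223614 (A_33_P3258362), chr16:223560-223619 (A_23_P26457) and chr16:222889-222948 (A_24_P142305). Capitals in the first and second mark the 55 bases that the 2 probes share, so they read nearly the same stretch of transcript. Capitals in the third mark the ATG at which translation of alpha globin starts, and this probe reads the opposite end of the transcript. A_23_P26457 was assigned to HBA2 alone and the other two to both HBA1 and HBA2.
HBA2 A_33_P3258362: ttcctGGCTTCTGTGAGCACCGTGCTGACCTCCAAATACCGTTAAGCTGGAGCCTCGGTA
HBA2 A_23_P26457: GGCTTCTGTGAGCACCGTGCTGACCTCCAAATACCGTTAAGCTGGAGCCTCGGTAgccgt
HBA2 A_24_P142305: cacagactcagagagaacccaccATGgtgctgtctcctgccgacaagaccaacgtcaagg

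Another pair of sequences shows how probes of 1 gene can differ in what they read. The HBZ probes A_21_P0011413 (hg19 chr16:204352-204411) and A_33_P3252534 (hg19 chr16:202914-202973), both on the plus strand, hold 7 and 1 CG pairs, which are in capitals. The former was detected on siCONT replicate 2 and after 5-aza-dC and the latter on no array, while the third HBZ probe, A_33_P3421827, was detected on all 9. Whether CG content bears on this was not tested.
HBZ A_21_P0011413: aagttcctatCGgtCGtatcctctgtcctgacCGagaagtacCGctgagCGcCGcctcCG
HBZ A_33_P3252534: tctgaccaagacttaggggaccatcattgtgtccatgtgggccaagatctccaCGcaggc

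The arrays were checked before the globins were read. UHRF1, the target of the siRNAs, fell in both UHRF1-depleted groups: its probe A_23_P208880 fell by 2.47 ± 0.14 (log2 ± SE; limma adjusted p = 0.00238) without TSA and by 3.35 ± 0.14 (limma adjusted p = 0.000132) with TSA. The 75th percentile of the spot signal was 245.3 to 337.9 with siRNA and 821.6 with 5-aza-dC, and 43.67% to 46.57% of probes on the former and 51.61% on the latter were well above background. All siRNA arrays shared 1 slide and 1 scan, with the mock-treated arrays in row 1 and the TSA arrays in row 2, so TSA and slide row cannot be told apart. The control siRNA arrays lay in columns 1 and 2 and the UHRF1 siRNA arrays in columns 3 and 4. UHRF1 depletion and slide column therefore cannot be told apart either. For 5-aza-dC both the slide and the scan were different. Among 9 colorectal epithelium markers, the keratins KRT8 and KRT18, the intestinal transcription factor CDX2 and the mucin MUC2 had a probe well above background on all 9 arrays. EPCAM and KRT20 were above it on 2 arrays each and KRT19 on 3, while the adhesion gene CDH1 and the microvillus gene VIL1 were so on none. MUC2 probes A_24_P84657 and A_33_P3412384 were above background on no array, and KRT8 probe A_24_P67395 was not above it in siCONT or siCONT + TSA.

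A gene is counted here by any of its probes. Of 11 erythroid genes, SLC4A1, KLF1 and EPOR had a probe well above background on all 9 arrays and TRIM58 after 5-aza-dC alone. For SLC4A1 this was A_33_P3400217, at 0.0919 of the 75th percentile in siCONT, and no other SLC4A1 probe was above background on all arrays. The alpha globin chaperone AHSP, the erythroid haem synthesis enzyme ALAS2, the transcription factor GATA1 and GYPB, EPB42, HEMGN and RHAG were not well above background on any array. The summed level of the 15 erythroid probes, each relative to the array's 75th percentile, was 1.27 and 1.29 on the siCONT arrays, 1.12 and 1.35 on the siUHRF1 arrays, 1.18 and 1.09 on the siCONT + TSA arrays, 1.11 and 1.29 on the siUHRF1 + TSA arrays and 1.76 on the 5-aza-dC array. None of the 3 erythroid probes that passed the detection filter was called by limma in any of the 3 tested comparisons. Of the 3 haematopoietic markers, CD34 was not well above background on any array, and SPI1 was on 2. PTPRC had some probe above it on 6 arrays, while other PTPRC probes, such as A_23_P12392, were above it on none.

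HBA2, an adult alpha globin gene, was well above background on all 9 arrays with all 3 probes. Probe A_23_P26457 had processed signals of 175 and 180 in siCONT, 327 and 419 in siUHRF1, 3063 and 3102 in siCONT + TSA, 4821 and 6134 in siUHRF1 + TSA, and 28131 after 5-aza-dC. Probe A_33_P3258362 gave 152 and 149, 322 and 340, 2959 and 3032, 4578 and 6087, and 29170 in the same order. Probe A_24_P142305 at the other end of the transcript gave 21.9 and 20 in siCONT, 48.6 and 50.4 in siUHRF1, 267 and 274 in siCONT + TSA, 397 and 506 in siUHRF1 + TSA, and 2480 after 5-aza-dC. The 3 probes thus placed the 5 conditions in 1 order, with siCONT lowest and 5-aza-dC highest. This order is a description of unscaled signals, and the place of siCONT + TSA above siCONT is what the genes were chosen for.

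Divided by each array's 75th percentile, the signal of A_23_P26457 was 0.62 and 0.632 in siCONT, 0.968 and 1.51 in siUHRF1, 12.5 and 12.1 in siCONT + TSA, 17.1 and 22.4 in siUHRF1 + TSA, and 34.2 after 5-aza-dC. The order was unchanged by this scaling, but scaling on the spike-in probes turned its top: HBA2 was then lower after 5-aza-dC than in siUHRF1 + TSA, with log2 differences of -0.72 (A_23_P26457), -0.63 (A_24_P142305) and -0.63 (A_33_P3258362). The spread within a group also differed, since the siCONT and siCONT + TSA arrays lay close together whereas the arrays with different UHRF1 siRNAs lay further apart. The siUHRF1 groups and their siCONT counterparts, which are neighbours in this order, are set side by side below without a test.

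**Figure D1:**
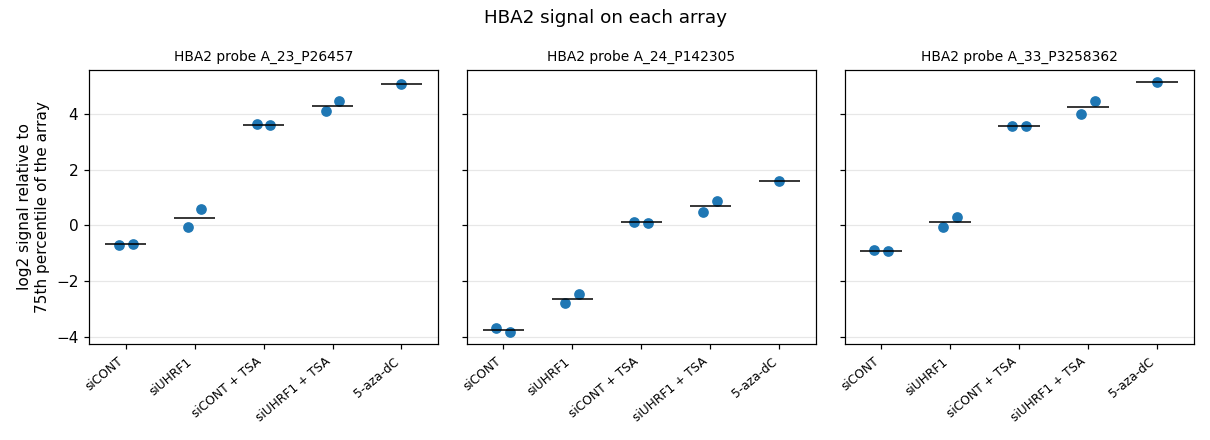
Signal of the 3 HBA2 probes on each array, relative to that array's 75th percentile on a log2 axis, in the 5 conditions (2 arrays each, 1 for 5-aza-dC); points are arrays and lines are group means. All points are filled because each was well above background. The siCONT arrays (0.62 and 0.632 for A_23_P26457) lie below every siCONT + TSA array (12.5 and 12.1), which is the comparison that chose the genes.

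To see whether TSA changed the globins in cells other than the control cells, siUHRF1 + TSA was compared with siUHRF1, a comparison that shares no array with the one through which the genes were chosen. HBA2 rose in all 3 probes, and smaller rises were called for HBM, which encodes the mu globin of the alpha cluster, and for the fetal gene HBG1. Of the 14 globin probes, 7 were detected (well above background) in both replicates of some siRNA group and could be tested, 6 of 8 in the alpha cluster and 1 of 6 in the beta cluster. Of these, 5 were called higher (4 alpha, 1 beta) and 0 lower, where 9.95% of the 23727 tested probes of the array were called higher and 5.53% lower. Calls required an adjusted p below 0.05 in limma, with Benjamini-Hochberg adjustment over all 23727 probes.

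HBA2 rose 16.2-fold (log2 4.02 ± 0.23 SE; limma adjusted p = 0.000622) by A_23_P26457. The rise was 17.6-fold (4.14 ± 0.18; limma adjusted p = 0.000251) by A_33_P3258362 and 9.98-fold (3.32 ± 0.17; limma adjusted p = 0.00041) by A_24_P142305. Ordered by the size of the rise, these probes stood at places 23, 20 and 86 of 23727. The SE and p-values rest on 1 spread shared by the 4 siRNA groups, although the spread differed between them. For A_23_P26457 the SD was 0.45 in siUHRF1 and 0.27 in siUHRF1 + TSA, against 0.018 in siCONT and 0.029 in siCONT + TSA. The SE and p-values of this comparison may therefore be too small. With only the 4 arrays compared, limma called 3 globin probes. HBA2 was called under each of the 19 limma alternatives tried for each probe, and with any 1 siRNA array left out its log2 change stayed between 3.12 and 4.36 over the 3 probes. With normexp background correction the rise by A_24_P142305 was 2.3 on the log2 scale (limma adjusted p = 6.83e-05). The methods' t-test on the 4 arrays alone, after Benjamini-Hochberg adjustment, called 0 globin probes, and at an unadjusted p below 0.05 it called 4, as it did 14.1% of all tested probes.

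The HBM probe (hg19 chr16:216693-216752, plus strand) lies between the HBZ and HBA2 probes. HBM rose 1.67-fold (log2 0.74 ± 0.17; limma adjusted p = 0.0383). Its signals were 21.8 and 20.8 in siUHRF1 and 35.3 and 29.4 in siUHRF1 + TSA, so the groups did not overlap (true of 32.1% of all tested probes in this direction), and they lay near background: the siCONT arrays (16.2 and 18.7) and siCONT + TSA arrays (13.7 and 18.7) were not well above it. This call ended when any siRNA array except siUHRF1 replicate 2 was left out, with log2 changes of 0.63 to 0.85 and limma adjusted p up to 0.136, and with normexp background correction the change was 0.23 (limma adjusted p = 0.725).

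HBG1 probe A_33_P3329078 (hg19 chr11:5269554-5269613, minus strand) rose 1.83-fold (log2 0.87 ± 0.19; limma adjusted p = 0.0317). Its signals were 48.3 and 57.1 in siUHRF1 and 81.3 and 93.8 in siUHRF1 + TSA, without overlap (true of 32.1% of all tested probes in this direction). As with HBM, the call ended without any siRNA array except siUHRF1 replicate 2 (log2 0.61 to 1.14, limma adjusted p up to 0.112), and with normexp correction the change was 0.53 (limma adjusted p = 0.166).

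HBQ1, which encodes theta globin, and the embryonic gene HBZ were the tested probes without a call. The HBQ1 probe spans 144 positions (hg19 chr16:230574-230717, plus strand) with 60 bases, so it covers a splice junction. HBQ1 had signals of 31 and 51.6 in siUHRF1 and 73 and 71.9 in siUHRF1 + TSA, a log2 difference of 1 ± 0.3 (limma adjusted p = 0.0734). The arrays of the 2 UHRF1 siRNAs lay far apart before TSA, and leaving out siUHRF1 replicate 1 gave 0.49 (limma adjusted p = 0.0338) and leaving out replicate 2 gave 1.51 (limma adjusted p = 0.00243). HBZ probe A_33_P3421827 (hg19 chr16:204445-204504, plus strand) had signals of 63.7 and 51.6 in siUHRF1 and 59.8 and 63.4 in siUHRF1 + TSA, and its scaled log2 difference was 0.24 ± 0.11 (limma adjusted p = 0.168).

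**Figure D2:**
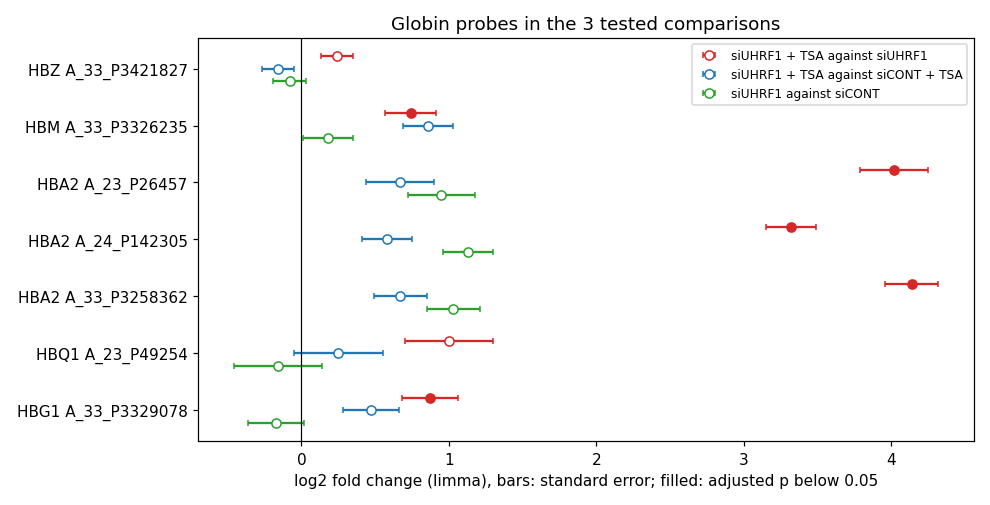
Log2 differences of the 7 tested globin probes in the 3 tested comparisons, with error bars of 1 SE from limma; filled points were called at an adjusted p below 0.05. In siUHRF1 + TSA against siUHRF1 the HBA2 probes lie at 3.32 to 4.14 and HBM and HBG1 at 0.74 and 0.87. In the other comparisons no point of HBM, HBG1, HBQ1 or HBZ is filled, and the HBA2 points are a description whose fill is not read.

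In control cells the same treatment gave HBA2 differences of 19.7-fold (A_23_P26457), 14.6-fold (A_24_P142305) and 22.5-fold (A_33_P3258362), which are the values the genes were chosen for and carry no test. They stood at places 3, 8 and 1 of 23727 by size. With normexp correction the log2 difference of A_24_P142305 went from 3.87 to 2.13. Of all 50599 probes, 0.713% were above background on both siCONT + TSA arrays and over 2-fold higher than in siCONT, among them 3 alpha cluster probes, all of HBA2, and 0 beta cluster probes. HBQ1 was 1.5-fold higher (53.1 and 56.8 against 40.4 and 42.3), HBZ probe A_33_P3421827 1.26-fold and HBG1 probe A_33_P3329078 1.17-fold, and HBM was below background in both groups.

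The log2 effect of TSA in UHRF1-depleted cells minus that in control cells was -0.28, -0.55 and -0.36 for the HBA2 probes A_23_P26457, A_24_P142305 and A_33_P3258362. It was 0.41 for HBQ1, 0.64 for HBG1 and -0.09 for HBZ probe A_33_P3421827. These differences were not tested, because they use the comparison that chose the genes.

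To see what UHRF1 depletion added when TSA was present, siUHRF1 + TSA was compared with siCONT + TSA, whose arrays also belong to the comparison that chose the genes. HBA2 is therefore described here without a p-value, and the other globin probes were tested. HBA2 was higher on both UHRF1-depleted arrays than on both control arrays in all 3 probes, 2 of which share 55 bases, and 26.8% of all tested probes were separated in the same way. The HBA2 log2 differences were 0.67 ± 0.23 (SE) for A_23_P26457, 0.58 ± 0.17 for A_24_P142305 and 0.67 ± 0.18 for A_33_P3258362. Of the 4 other tested globin probes limma called 0, where 2.96% of all tested probes were called higher and 0.573% lower. At an unadjusted limma p below 0.05 there were 2 of these 4 (HBM and HBG1), against 17.4% of all tested probes. By the methods' t-test there was 1, against 15.3%. The HBM test is not independent of the detection filter, so these counts are a description.

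HBM passed the detection filter through the UHRF1-depleted groups alone, so its tests against the control siRNA groups are not independent of the filter. It had 35.3 and 29.4 in siUHRF1 + TSA against 13.7 and 18.7 in siCONT + TSA. Since the siCONT + TSA arrays were not well above background, it was at least 1.81-fold higher, a limit computed with the dimmest detected signal of each of those arrays, or with HBM's own value where that was larger, in place of its reading (limma log2 difference 0.86 ± 0.17, adjusted p = 0.0566). With normexp correction the fitted difference turned to -0.32 (limma adjusted p = 0.432). HBG1 (0.47 ± 0.19, limma adjusted p = 0.281) and HBQ1 (0.25 ± 0.3, limma adjusted p = 0.735) also changed sign with normexp, to -0.03 and -0.15. HBZ probe A_33_P3421827 differed by -0.16 ± 0.11 (limma adjusted p = 0.495).

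Without TSA, siUHRF1 was compared with siCONT, whose arrays likewise entered the comparison that chose the genes. HBA2 signals, again described without a p-value, were higher on both UHRF1-depleted arrays in all 3 probes, a separation that 19.8% of all tested probes showed. The HBA2 log2 differences were 0.95 ± 0.23 (A_23_P26457), 1.13 ± 0.17 (A_24_P142305) and 1.03 ± 0.18 (A_33_P3258362), and with normexp correction they were 0.75, 0.31 and 0.79. Of the 4 other tested globin probes limma called 0, where 0.518% of all tested probes were called higher and 0.0379% lower. At an unadjusted limma p below 0.05 there were 0 of these 4, against 8.91% of all tested probes, and 1 by the methods' t-test, against 7.78%. The siCONT and siUHRF1 arrays of HBM overlapped once scaled, with a fitted log2 difference of 0.18 ± 0.17 (limma adjusted p = 0.858) that normexp turned to -0.07. Here too the HBM test is not independent of the filter. HBQ1 (-0.16 ± 0.3, limma adjusted p = 0.939), HBG1 (-0.17 ± 0.19, limma adjusted p = 0.884) and HBZ (-0.08 ± 0.11, limma adjusted p = 0.91) were below 0 in the fit. Leaving out siUHRF1 replicate 1 turned HBQ1 to 0.35 and HBG1 to 0.09.

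The combination differed from siCONT, 2 groups with no array in common, by 31.3-fold (A_23_P26457), 21.8-fold (A_24_P142305) and 35.8-fold (A_33_P3258362) for HBA2. HBM was at least 1.89-fold higher, HBQ1 1.79-fold and HBG1 1.62-fold. The siCONT arrays served the choice of the genes, so these values have no test.

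After 5-aza-dC the alpha cluster was over 2-fold higher than in siCONT at 7 of 8 probes, whereas no beta cluster probe could be shown to pass 2-fold. HBE1 was not detected in siCONT, and its lower limit of 1.88-fold does not settle whether it passed 2-fold. HBG1 probe A_33_P3329078 was 1.02-fold lower, and the other beta cluster probes were undetected in both groups. With 1 array in the treated group, not transfected and on another slide, no test was possible, and treatment, slide, scan and transfection cannot be told apart. Of all 50599 probes, 6.79% were above background and over 2-fold higher on this array, against 7 of 8 alpha probes and 0 of 6 beta probes. This count used the lower limit for probes undetected in siCONT. The 7 alpha probes include every HBA2 probe, and the siCONT arrays also served the choice of the genes, so the counts are a description. HBA2 differed by 54.7-fold (A_23_P26457), 40.9-fold (A_24_P142305) and 66.9-fold (A_33_P3258362). The values depend on the scaling, because scaling on the spike-in probes moved the median of all probes by -1.69 on the log2 scale in this comparison (by -0.18 in both TSA comparisons). Under it 1.64% of all probes, 5 alpha probes and 0 beta probes were over 2-fold higher, with HBA2 at log2 4.08, 3.66 and 4.37 in the same order. With normexp correction the log2 difference of A_24_P142305 was 3.63, against 5.35 at the 75th percentile scaling.

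HBM had signals of 13.7 to 35.3 on all siRNA arrays. It reached 965 after 5-aza-dC and was at least 19.2-fold higher than in siCONT (spike-in scaling: at least log2 2.57). Against siUHRF1 + TSA it was 10.1-fold higher, and under spike-in scaling that log2 difference was 1.81. HBA2, in contrast, was 1.75-fold (A_23_P26457), 1.87-fold (A_24_P142305) and 1.87-fold (A_33_P3258362) higher than in siUHRF1 + TSA, and lower under spike-in scaling, as given above.

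HBZ and HBQ1 were also higher on the 5-aza-dC array at the 75th percentile scaling. HBZ probe A_33_P3421827 had signals of 55.7 and 56.1 in siCONT and 51.6 to 65 over all siRNA arrays, and 881 after 5-aza-dC, 5.44-fold above siCONT (spike-in scaling: log2 0.75). HBZ probe A_21_P0011413 was above background on 1 of 2 siCONT arrays (29.9, against 15.2 on the other), lay between 3.51 and 16.7 on the remaining siRNA arrays, and was 449 after 5-aza-dC, 7.28-fold above siCONT (spike-in scaling: log2 1.17). The third HBZ probe, A_33_P3252534, was between 2.74 and 14.7 and never well above background. HBQ1 was 470 after 5-aza-dC, 3.92-fold above siCONT and 2.19-fold above siUHRF1 + TSA. Under spike-in scaling the HBQ1 log2 differences were 0.28 and -0.4, so its direction against the combination turned.

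**Figure D3:**
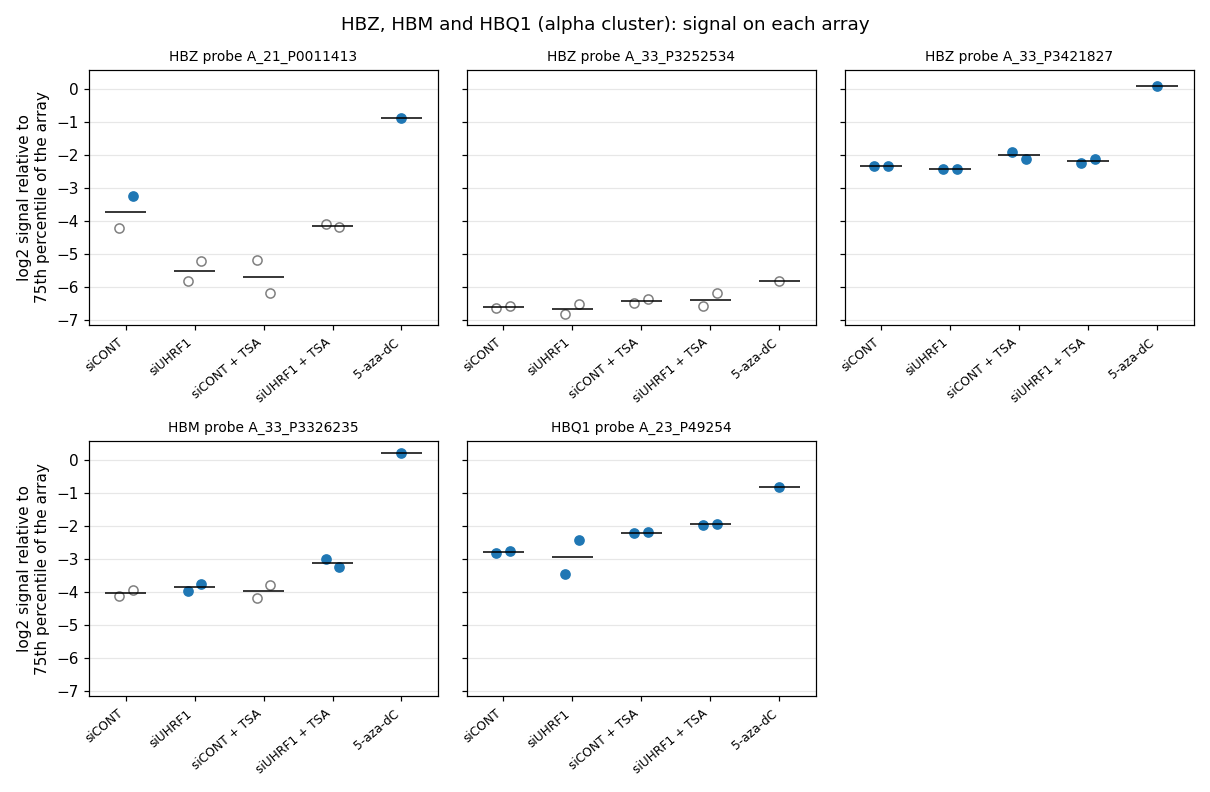
Signal of the 5 alpha cluster probes other than HBA2 on each array, relative to that array's 75th percentile on a log2 axis; filled points were well above background, open grey points were not, and lines are group means. HBM, HBQ1 and the HBZ probes A_33_P3421827 and A_21_P0011413 stand higher on the 5-aza-dC array (965, 470, 881 and 449 as processed signal) than on any siRNA array, and A_33_P3252534 is open on every array.

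In the beta cluster the adult and embryonic genes stayed near background. HBB, the adult beta globin gene, had signals of 3.3 to 6.94 (A_23_P203558, hg19 chr11:5246718-5246777) and 3.42 to 7.24 (A_33_P3289150, hg19 chr11:5248743-5248802) over all 9 arrays and was never well above background, although 1 of 10 spots of A_23_P203558 was so on siCONT replicate 2. Probe A_33_P3289150 carried the name HBB on the array but matched no RefSeq accession. HBD, which encodes delta globin (hg19 chr11:5255258-5255317), ranged from 4.96 to 28.1 and was never well above background. HBE1, the embryonic beta-type gene (hg19 chr11:5291121-5291180), was between 2.87 and 9.27 and undetected on the siRNA arrays, and was 77.1 after 5-aza-dC. It was therefore at least 1.88-fold higher there than in siCONT, while under spike-in scaling the limit was below 1 and gives no fold.

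HBG1 was the beta cluster gene with a probe above background on every array. Probe A_33_P3329078 gave 52.5 and 57.2 in siCONT, 48.3 and 57.1 in siUHRF1, 58.4 and 55.3 in siCONT + TSA, 81.3 and 93.8 in siUHRF1 + TSA, and 156 after 5-aza-dC. The siUHRF1 + TSA arrays lay above all other siRNA arrays. Relative to the 75th percentile the 5-aza-dC array was 1.02-fold lower than siCONT and 1.65-fold lower than siUHRF1 + TSA. Under spike-in scaling these log2 differences of HBG1 were -1.72 and -2.26. The second HBG1 probe, A_23_P53137, overlaps it by 40 bases, 39 of them identical with the substitution G22T (positions from the 5′ end of A_23_P53137, its base first). That probe gave 3.35 to 11 and was not well above background on any array as a whole, with 1 and 2 of its 10 spots above background on the siUHRF1 + TSA arrays. The probes of this gene therefore differ in whether it was detected.

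**Figure D4:**
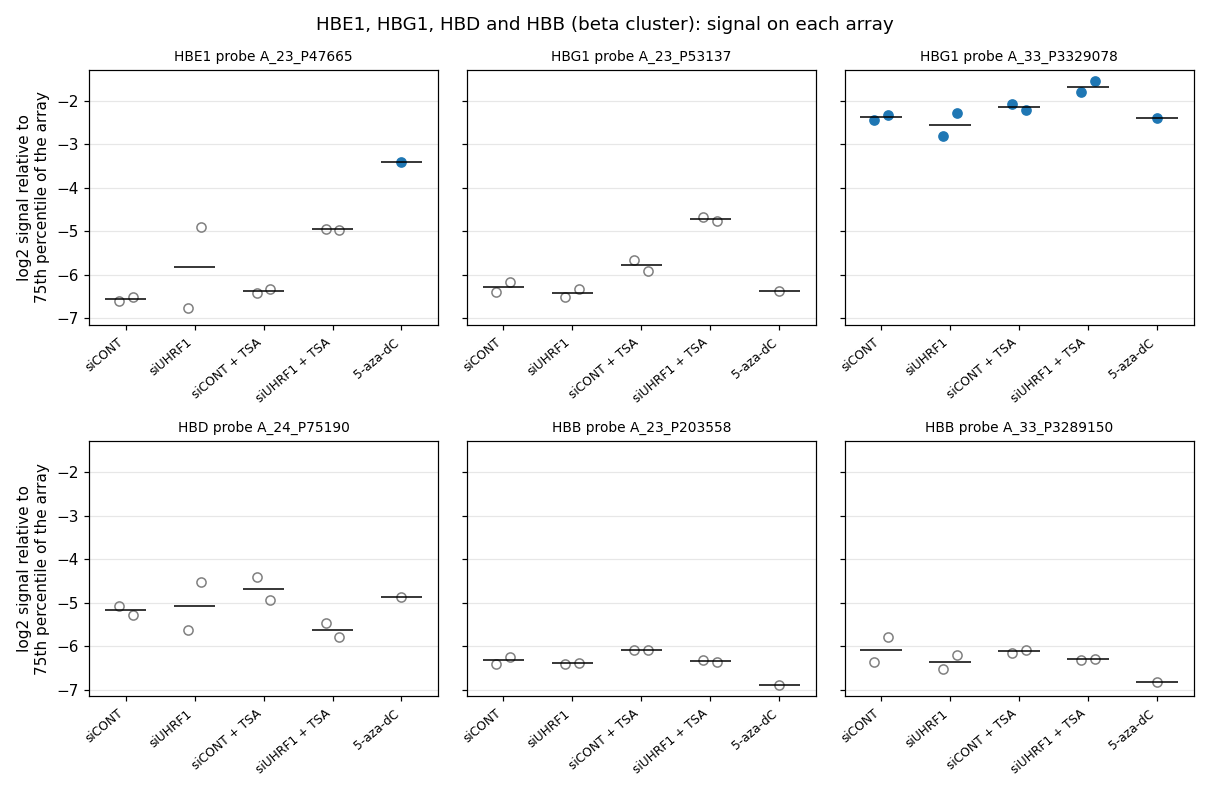
Signal of the 6 beta cluster probes on each array, relative to that array's 75th percentile on a log2 axis; filled points were well above background, open grey points were not, and lines are group means. HBG1 probe A_33_P3329078 is filled on all 9 arrays, HBE1 on the 5-aza-dC array alone (77.1 as processed signal), and the other probes on none.

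The RefSeq promoter table (GRCh38.p14) held 2 of the 10 genes, 1 from each cluster, and both are shown. These arrays hold no methylation values, and whether CG content bears on the response to 5-aza-dC was not tested. The 250 bases before the start of HBM (chr16:165728-165977, plus strand) held 27 CG pairs and 69.2% GC, and those before HBD (chr11:5234484-5234733, minus strand) held 2 and 45.2%. Over all 35116 promoters the median was 11 CG pairs (quartiles 3 and 23) and 58.0% GC, and 82.3% of promoters had fewer CG pairs than HBM and 14.7% fewer than HBD. Capitals mark 4 motifs, each searched on both strands. GATA (or TATC, its other strand) was held by 45.6% of promoters and CCAAT (or ATTGG) by 32.0%. CACCC (or GGGTG) was held by 54.7% and TATAA (or TTATA) by 18.9%. HBM had GATA 63 bases, GGGTG 49 bases and TATAA 33 bases before the start. HBD had GATA at 246 and 205 bases, CCAAT at 153 bases and TATC at 77 bases before it.
HBM: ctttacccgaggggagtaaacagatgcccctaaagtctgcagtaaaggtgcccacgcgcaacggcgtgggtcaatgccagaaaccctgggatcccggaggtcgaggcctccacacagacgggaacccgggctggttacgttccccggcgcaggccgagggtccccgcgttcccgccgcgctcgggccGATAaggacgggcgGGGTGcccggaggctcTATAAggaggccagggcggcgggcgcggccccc
HBD: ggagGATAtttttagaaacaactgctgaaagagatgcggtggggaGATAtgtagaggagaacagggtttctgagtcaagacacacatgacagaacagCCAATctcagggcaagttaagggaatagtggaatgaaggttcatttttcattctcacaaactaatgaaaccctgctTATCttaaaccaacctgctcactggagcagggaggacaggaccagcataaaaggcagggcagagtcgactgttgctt

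The genes next to the clusters were read from fixed lists. Of 12 probes of 11 alpha cluster neighbours, 11 were tested, and with TSA in UHRF1-depleted cells 1 was called higher and 0 lower, with a median log2 difference of 0.01 against 0.071 over all tested probes. Over all tested probes 9.95% were called higher and 5.53% lower, so 1 of 11 was near the share of the array. The called gene was NPRL3, whose introns hold the distal alpha globin enhancers (0.43 ± 0.11, limma adjusted p = 0.0444). Its call ended without each of 6 siRNA arrays (all but siUHRF1 replicate 2 and siUHRF1 + TSA replicate 2), with limma adjusted p up to 0.127. The protein disulfide isomerase gene PDIA2 was not detected in siCONT or siCONT + TSA and passed the filter through the UHRF1-depleted groups alone. Its calls are therefore not independent of the filter. PDIA2 was at least 4.67-fold higher with UHRF1 depletion under TSA (limma adjusted p = 0.0129) and at least 2.81-fold without TSA (limma adjusted p = 0.0488). Over all tested probes 2.96% and 0.518% were called higher in these comparisons. The first PDIA2 call ended without siCONT + TSA replicate 2 or either siUHRF1 + TSA array (limma adjusted p up to 0.0816), the second without any siRNA array but siCONT replicate 2 (up to 0.122). With normexp correction neither held (log2 0.34 and 0.53). Of 23 beta cluster neighbours, mostly olfactory receptor genes, 21 were on the array with 28 probes, and of these 3 were tested and 0 were called in any of the 3 comparisons.

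Among 20 transcription factors and repressors of the globin loci, 14 of 25 probes were tested, and with TSA in UHRF1-depleted cells 3 were called higher and 1 lower, with a median log2 difference of 0.06. Over all tested probes 9.95% were called higher and 5.53% lower there, and 2.96% higher with UHRF1 depletion under TSA. LIN28B, an RNA-binding protein of fetal cells, was detected on both arrays of siUHRF1 + TSA alone among the siRNA groups and was at least 6.08-fold higher there than in siUHRF1 (limma adjusted p = 0.0463). It passed the filter through that group alone, so the LIN28B calls here and below are not independent of the filter. With normexp correction the LIN28B log2 difference was 0.98 (limma adjusted p = 0.0962). BCL11A, a repressor of fetal globin genes, was at 1.22 ± 0.28 by A_33_P3249595 (limma adjusted p = 0.0376; 0.44 with normexp, adjusted p = 0.396), while the other tested BCL11A probes were at -0.04 ± 0.19 (A_24_P402588) and 0.06 ± 0.17 (A_24_P411186). TCF3, a partner of TAL1, was at 0.49 ± 0.11 (limma adjusted p = 0.036). MYB fell by 1.06 ± 0.23 (limma adjusted p = 0.0311). Each of these 4 calls ended without at least 5 of the 8 siRNA arrays, with limma adjusted p up to 0.148. GATA1 was not well above background on any array, and LIN28B was the 1 probe called with UHRF1 depletion under TSA, at least 4.83-fold higher (limma adjusted p = 0.0397, up to 0.185 with an array left out, and 0.323 with normexp).

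Hemoglobin also needs haem and iron. Over all tested probes 9.95% were called higher and 5.53% lower with TSA in UHRF1-depleted cells, and 2.96% higher with UHRF1 depletion under TSA. For haem synthesis and degradation, 14 of 16 probes of 13 genes were tested, and with TSA in UHRF1-depleted cells 2 were called higher and 1 lower (median log2 0.21). The former were probe A_33_P3233565 of UROS, an enzyme of haem synthesis (0.43, limma adjusted p = 0.0304), and the haem oxygenase HMOX2 (0.53, limma adjusted p = 0.033), and the latter was probe A_32_P151933 of FECH, the enzyme that inserts iron (-0.47, limma adjusted p = 0.0303). The other tested probes of UROS (A_23_P35609, 0.31) and FECH (A_33_P3214635, -0.05) were not called. Each call ended without 7 of the 8 siRNA arrays (limma adjusted p up to 0.0936). The same FECH probe was called higher with UHRF1 depletion under TSA (0.73 ± 0.1, limma adjusted p = 0.0156), ended without 6 arrays (up to 0.141) and turned to -0.27 with normexp. For haem and iron transport, 17 of 18 probes of 10 genes were tested and the transferrin receptor gene TFRC was the 1 called (1.22 ± 0.26, limma adjusted p = 0.0305, ended without 6 arrays, up to 0.0942), with a list median of 0.27. Of 4 other globins, 1 of 5 probes was tested, and of 5 hemoglobin partners 2 of 5, and none was called in any of the 3 comparisons.

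Epithelial markers were called in the same comparison as HBA2 (where 9.95% of all tested probes were called higher) and also with UHRF1 depletion under TSA (2.96%). Of 15 probes, 9 were tested, and with TSA in UHRF1-depleted cells 4 were called higher and 0 lower (median log2 0.56): probe A_23_P14072 of KRT8 at 1.37 ± 0.17 (limma adjusted p = 0.00688), KRT19 at least 4.69-fold higher (limma adjusted p = 0.0117) and both KRT18 probes at 0.64 and 0.56. KRT19 was detected in no siRNA group but siUHRF1 + TSA and passed the filter through it alone, so its calls are not independent of the filter. With UHRF1 depletion under TSA 2 of the 9 were called, the same KRT8 probe at 1.79 ± 0.17 (limma adjusted p = 0.00337) and KRT19 at least 3.76-fold higher (limma adjusted p = 0.00574). The other tested KRT8 probes were not called in either comparison. A_33_P3372368 was at 0.48 with TSA and 0.32 with UHRF1 depletion under TSA, and A_24_P67395 at 1.12 and 2.12. What follows on KRT8 is for A_23_P14072. KRT8 kept its call in both comparisons with each array left out. KRT19 lost it in both without siUHRF1 + TSA replicate 1 (limma adjusted p = 0.0579 and 0.0508) and with normexp (0.174 and 0.605), and in the TSA comparison the KRT18 probes without 7 and 6 of the 8 arrays. The summed level of the 15 probes was 60.6 and 61.7 in siCONT, 69.2 and 75.7 in siUHRF1, 69.4 and 68 in siCONT + TSA, 122 and 98.3 in siUHRF1 + TSA, and 57.6 after 5-aza-dC. Its part in the globin result was not tested.

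The genes whose pattern over the 9 arrays was most like that of HBA2 probe A_23_P26457 were DHX37 and KPNA2 (Pearson r = 0.99 each), SRSF3 (0.989), UBE2C (0.987) and SKP1 (0.986), out of 15303 probes that varied by at least 1 on the log2 scale. These correlations are a description, over arrays that share treatments and scaling. The 5 genes were well above background on every array and ranged over 1.05 to 1.58 on the log2 scale, against 5.79 for HBA2. The likeness is thus in the order of the arrays and not in the size of the differences.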

How the data were processed

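Total RNA of RKO cells was hybridized to 9 1-colour Agilent SurePrint G3 Human GE v2 arrays. The deposited values are linear intensities of 62976 spots an array, which the authors extracted with Agilent Feature Extraction 10.7.3.1 (background-subtracted, no normalization between arrays). The value table deposited beside them held the same intensities to within 0.497%.

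From each log2 intensity the array's 75th percentile over non-control spots was subtracted. Outlier spots were left out and spots of a probe averaged. A probe counted as well above background on an array when over 50% of its spots did. Probes detected in both replicates of any siRNA group (23727) were tested with limma 3.58.1 in R 4.3.3 (lmFit, eBayes) on the 8 siRNA arrays in 4 groups, with Benjamini-Hochberg adjustment over all of them. Comparisons with siCONT + TSA against siCONT or with the single 5-aza-dC array were described without a test, as was HBA2 wherever siCONT or siCONT + TSA was compared. Depth has no counterpart on arrays, and the number of arrays limits precision. The procedure was tested on simulated data of 23699 probes. Of 200 given a log2 change of 1.5, 68.5% were recovered for TSA in UHRF1-depleted cells (147 called, 10 false) and 66% for UHRF1 depletion under TSA (140 called, 8 false). The simulated arrays of a probe were independent and had the same SD in every group. The real groups differed in spread, with a median replicate difference of 0.261 (log2) in siUHRF1 and 0.0699 in siCONT. The simulation therefore does not show how many calls are false in the real data.

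The members, lists and tests were chosen with earlier results of these data known. Genes named are all globin probes, UHRF1, at most 4 called genes a list and comparison without overlap between groups, list genes as levels, and the 5 most like HBA2. Some erythroid markers first listed are not reported here and were left out of that list, for a reason unrelated to their values. Alternatives were normexp background correction (offset 50), quantile normalization, a median shift, spike-in scaling, no filter and a stricter filter, the deposited value table, keeping outlier spots, only the 4 arrays compared, a replicate block, each array left out, a trended and robust prior, the methods' t-test and unadjusted p-values. Probe coordinates and sequences are those of the array files (hg19), and gene assignments for 28174 probes came from RefSeq accessions. Promoters are from RefSeq (GRCh38.p14).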

Additional observations from a re-analysis of the deposited data

How the results depend on the processing

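The HBA2 rise with TSA in UHRF1-depleted cells kept its direction and call under all 19 limma alternatives, whereas the number of globin probes called, 5 as reported, was 3 with normexp, 3 with only the 4 arrays compared, 0 with the methods' t-test after adjustment, and 3 to 6 with an array left out. For UHRF1 depletion under TSA, 0 of the 4 tested probes other than HBA2 were called as reported. Without the filter 1 globin probe was called there. That probe had failed the filter and was not well above background on any of the arrays compared. By the methods' t-test at an unadjusted p below 0.05 there was 1 among the 4. At an unadjusted limma p below 0.05 there were 2 among the 4 tested probes other than HBA2. They were HBG1 and HBM, and the HBM test is not independent of the filter. For UHRF1 depletion without TSA, none of these 4 probes was called with quantile normalization, spike-in scaling or the trended and robust prior. At an unadjusted p below 0.05 there were 0 of them by limma and 1 by the methods' t-test. Calls of HBA2 against siCONT or siCONT + TSA are left out here, because those arrays served the choice of the genes. HBA2 probe A_23_P26457 without a test went from log2 4.3 in control cells with TSA to 3.7 (normexp), 4.24 (quantile) and 4.11 (spike-in scaling), and from 5.77 after 5-aza-dC to 5.53 (normexp), 5.89 (median shift) and 4.08 (spike-in scaling). Under normexp HBM (-0.32), HBQ1 (-0.15), HBG1 (-0.03) and FECH (-0.27) changed sign for UHRF1 depletion under TSA, as did HBM (-0.07) without TSA. Without siUHRF1 replicate 1, HBQ1 (0.35) and HBG1 (0.09) changed sign for UHRF1 depletion without TSA (their lowest values, without replicate 2, were -0.67 and -0.44), and HBQ1 (-0.4) did so under spike-in scaling for 5-aza-dC against siUHRF1 + TSA. Except for the spike-in shift, the causes were not tested.

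With a replicate block 5 globin probes were called for TSA in UHRF1-depleted cells. In the 2 comparisons of UHRF1 depletion, 0 of the 4 tested probes other than HBA2 were called with it. Replicate numbers pair the siRNA only within the UHRF1-depleted groups, whose replicate differences correlated at r = 0.466 over 23727 probes, against 0.079 for the control groups. Slide and scan could not be fitted as a block, since the siRNA arrays share both. Signals near background limit what can be read of HBM, HBZ, HBD, HBE1 and HBB, and groups of 2 arrays limit all tests.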
